A study of Mus musculus with 4 samples.

Results

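The genes of cholesterol synthesis and of its transcriptional control by SREBP2 were followed in fat of fasted male mice of 4 genotypes. The tissue was epigonadal white adipose tissue, a visceral depot that lies next to the male reproductive tract. The named genes were Hmgcs1, Fdft1, Sqle, Lss, Idi1, Insig1 and Srebf2. A gene was read from the probe that carries its symbol alone, and from the brightest such probe over the 4 arrays where there were several. By that rule 6 of the 7 named genes were measured, each by 1 probe, of 22180 genes in all. The only probe that names Idi1 also names a pseudogene, Gm13502, so Idi1 has no value of its own here.

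The Cre lines were LDKO mice, which carry floxed Irs1 and Irs2 and the Albumin-Cre transgene, and LTKO mice, which carry floxed Irs1, Irs2 and FoxO1 and the same transgene. The Irs1/2-flox control shares the floxed alleles of LDKO and lacks Cre. The Irs1/2:FoxO1-flox control stands in the same relation to LTKO. Every group had 1 array. The albumin promoter directs Cre to hepatocytes, so the deleted genes are those of the liver while the RNA measured is that of fat. An age, 4 months, is given for mice of both Cre lines and none for the controls. The sources used here do not say whether an array holds the RNA of 1 mouse or of several. The comparisons ask how these genes differ in fat when the liver lacks the insulin receptor substrates, and when it lacks the transcription factor Foxo1 as well. No difference could be checked against replicates, so none has an error or a test, and precision is limited by the count of arrays. All values are log2 RMA signals, differences are on the log2 scale, and a gene was counted as apart at 2-fold (a difference of 1) or, by a second rule, at 1.5-fold, among genes at or above the median gene (5.15) in at least 1 array compared. All 6 genes passed that filter in every comparison. Because each value is that of 1 probe, levels were compared between arrays and not between genes.

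Cholesterol is built from acetyl-CoA through mevalonate, isoprenoid units and squalene, which is then closed into the first sterol ring and trimmed to cholesterol. The pathway is governed by SREBP2, a transcription factor held in the endoplasmic reticulum with its escort protein SCAP. When sterols are plentiful, INSIG proteins hold SCAP there, and when sterols fall the complex moves to the Golgi, where proteases release the active factor. SREBP2 then raises transcription of the synthetic enzymes, of Insig1 and of its own gene. Insig1 takes its name from its induction by insulin. Fat stores much of the body's cholesterol in its lipid droplets and makes little of it.

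The promoters of the 3 genes on which the results turn most are shown. LDKO was the highest array for Insig1 and the lowest for Hmgcs1, and Srebf2 is the gene of the factor itself. The sequences are from RefSeq on GRCm38.p6, run 5′ to 3′ from 250 bases before to 50 bases after the annotated start on the plus strand, and lie at chr5:28071162-28071461 for Insig1, chr13:119690101-119690400 for Hmgcs1 and chr15:82147019-82147318 for Srebf2. Capitals mark the SREBP-binding core TCACNCCA and the E-box CACGTG, both searched on both strands.
Insig1: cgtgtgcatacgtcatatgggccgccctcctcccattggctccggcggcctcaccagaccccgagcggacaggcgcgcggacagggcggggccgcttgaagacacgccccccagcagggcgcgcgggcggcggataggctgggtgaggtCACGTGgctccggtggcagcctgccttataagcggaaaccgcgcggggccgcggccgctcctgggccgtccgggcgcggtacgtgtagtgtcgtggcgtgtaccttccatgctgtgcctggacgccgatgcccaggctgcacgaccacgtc
Hmgcs1: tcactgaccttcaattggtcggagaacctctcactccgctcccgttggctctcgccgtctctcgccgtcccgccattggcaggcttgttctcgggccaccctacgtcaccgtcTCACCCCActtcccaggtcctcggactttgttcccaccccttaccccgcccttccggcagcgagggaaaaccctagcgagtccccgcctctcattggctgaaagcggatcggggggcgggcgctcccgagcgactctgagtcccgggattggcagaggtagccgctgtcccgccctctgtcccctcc
Srebf2: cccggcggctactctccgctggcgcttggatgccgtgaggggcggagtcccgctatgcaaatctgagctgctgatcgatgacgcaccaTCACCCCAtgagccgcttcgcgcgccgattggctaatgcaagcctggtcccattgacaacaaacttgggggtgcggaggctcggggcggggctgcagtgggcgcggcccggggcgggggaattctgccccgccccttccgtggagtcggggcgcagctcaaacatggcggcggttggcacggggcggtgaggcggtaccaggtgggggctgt

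Of the 7 named genes 5 had a promoter in the table, and Fdft1 and Sqle had none. The core TCACNCCA was found in 2 of these 5, at base −137 of Hmgcs1 and at base −162 of Srebf2, counted from the start with −1 as the base before it, and in 4.36% of all 32851 promoters. The E-box was found in 1, at base −101 of Insig1, and in 7.15% of all promoters. The NF-Y box CCAAT, the letters of a partner factor of SREBPs, was found on one strand or the other in all 5 and in 37.4% of all promoters. No match of 1 motif overlapped that of another in the 3 windows shown. A match describes letters and no binding was measured.

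The tissue was read by marker genes before the pathway was examined. All 7 measured adipocyte markers of 8 listed were above the median gene in every array, and their summed linear signal was 27260 in LDKO, 25044 in the Irs1/2-flox control, 24822 in LTKO and 25281 in the Irs1/2:FoxO1-flox control. The LTKO array held signal of other tissues, with summed signals of 1403, against 311 in its control, for 8 hepatocyte markers, 665, against 70.2, for 5 epididymis markers, and 242, against 47.9, for 4 sperm and testis markers. The Irs1/2-flox control array was the highest for skeletal muscle (320 in LDKO, 856 in that control, for 6 markers) and for mesothelium (808 in LDKO, 1489 in that control, for 6 markers). The 6 macrophage markers were all lower in LDKO than in its control (2521, against 3256) and in LTKO than in its control (2283, against 2929). In these whole-tissue arrays a change in the share of a cell type and a change in RNA per cell cannot be told apart.

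Insig1, the sterol-sensing retention protein of SCAP, was the only gene of the 6 that lay 2-fold apart in LDKO fat. It stood at 10.74 in LDKO, against 9.50 in the Irs1/2-flox control, and at 9.62 in LTKO, against 9.49 in the Irs1/2:FoxO1-flox control. LDKO was thus high and the other 3 arrays lay within 0.14 of each other. The difference of LDKO from its control was 1.24, or 2.36-fold. Its rank was the 35th from the highest of 11533 genes, and 66 genes (0.572%) differed by at least as much in either direction. Against the other control the difference was 1.25, so the value did not depend on which floxed array was used.

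**Figure D1:**
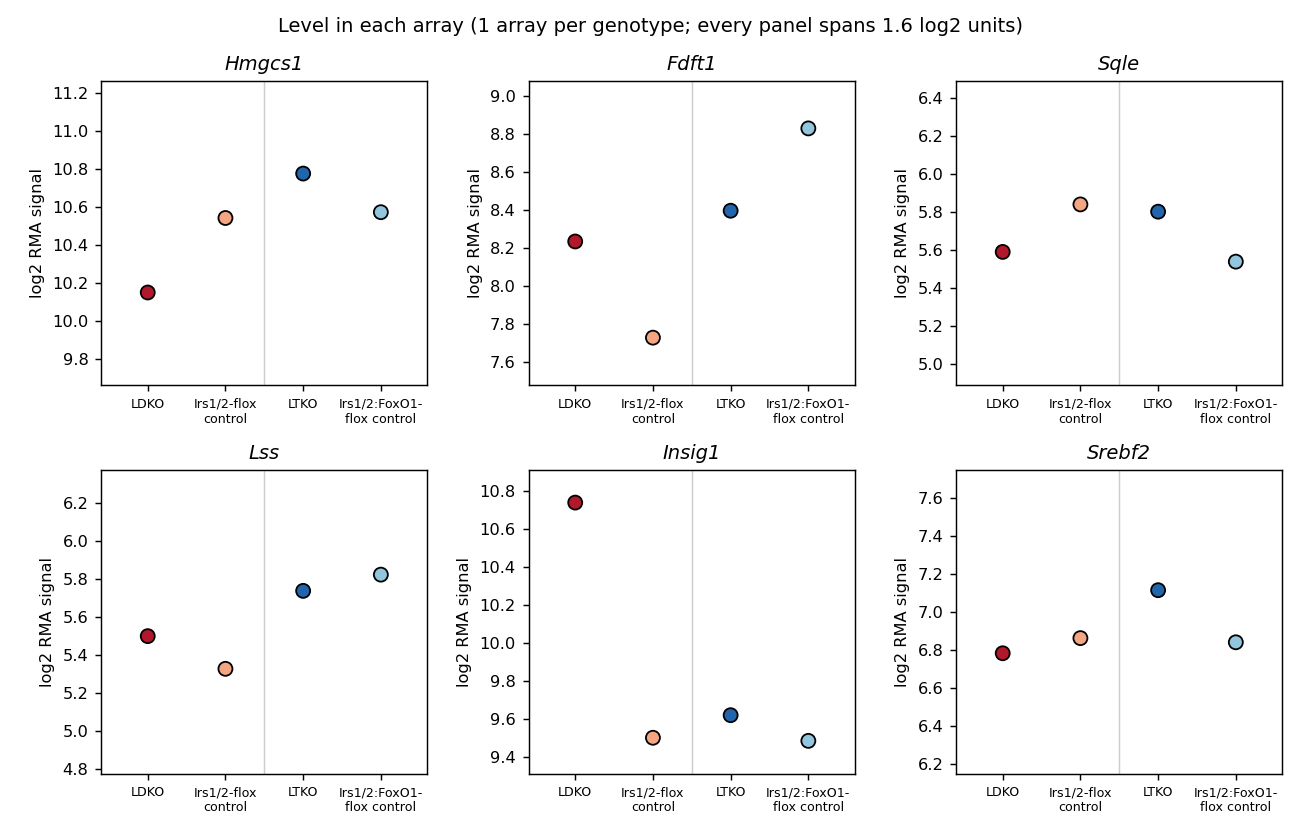
Level of each of the 6 measured genes in each array, as log2 RMA signal, with 1 point for the 1 array of each genotype and the same span of 1.6 log2 units in every panel. Insig1 is high in LDKO (10.74) and between 9.49 and 9.62 elsewhere, Hmgcs1 is lowest in LDKO (10.15), and Fdft1 differs most between the 2 control arrays.

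Srebf2, the gene of the SREBP2 factor itself, was not high in LDKO. It was 6.78 in LDKO, against 6.86 in the Irs1/2-flox control, a difference of −0.08. In LTKO it was 7.11, against 6.84 in the Irs1/2:FoxO1-flox control, a difference of 0.27. Its highest value was that of LTKO and the other 3 arrays lay close together.

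The enzymes of the pathway were split in LDKO. Hmgcs1, the synthase that makes HMG-CoA ahead of mevalonate, was 10.15 in LDKO, against 10.54 in the Irs1/2-flox control, a difference of −0.39, and −0.42 against the other control. LDKO was the lowest of the 4 arrays for this gene and the highest for Insig1. Over all genes past the filter LDKO was the lowest array for 37.4% and the highest for 22.7%. Within the same pair of arrays the Insig1 difference exceeded that of Hmgcs1 by 1.63. This was the largest gap between Insig1 and another of the measured genes, and the smallest was 0.73, for Fdft1. Sqle, the epoxidase that opens the sterol branch from squalene, was 5.59 in LDKO, against 5.84 in the Irs1/2-flox control, a difference of −0.25. Against the other control it was 0.05, so its direction turned with the control. Fdft1, squalene synthase, was 8.23 in LDKO, against 7.73 in the Irs1/2-flox control, and Lss, which closes the sterol ring, was 5.50, against 5.33. These differences, 0.51 for Fdft1 and 0.17 for Lss, also turned with the control, to −0.60 and −0.32 against the Irs1/2:FoxO1-flox array.

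In LDKO 1 of the 6 genes, Insig1, was 2-fold apart from the Irs1/2-flox control, while 1.20% of all 11533 genes were so in either direction. At 1.5-fold the count was again 1, against 6.74% of all genes. Of the 6 genes 3 were higher and 3 lower. Their median difference was 0.05, or −0.08 without Insig1, and that of all genes past the filter was −0.05, with 43.2% of them higher. The Insig1 value lay beside lower skeletal muscle, mesothelial and macrophage markers in LDKO and a median difference of 0.08 over 7 adipocyte markers, 6 of them higher. The Irs1/2:FoxO1-flox control, against which the Insig1 difference was 1.25, had muscle and mesothelial sums of 448 and 944, also above those of LDKO. The part of these cell types in the result was not tested.

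**Figure D2:**
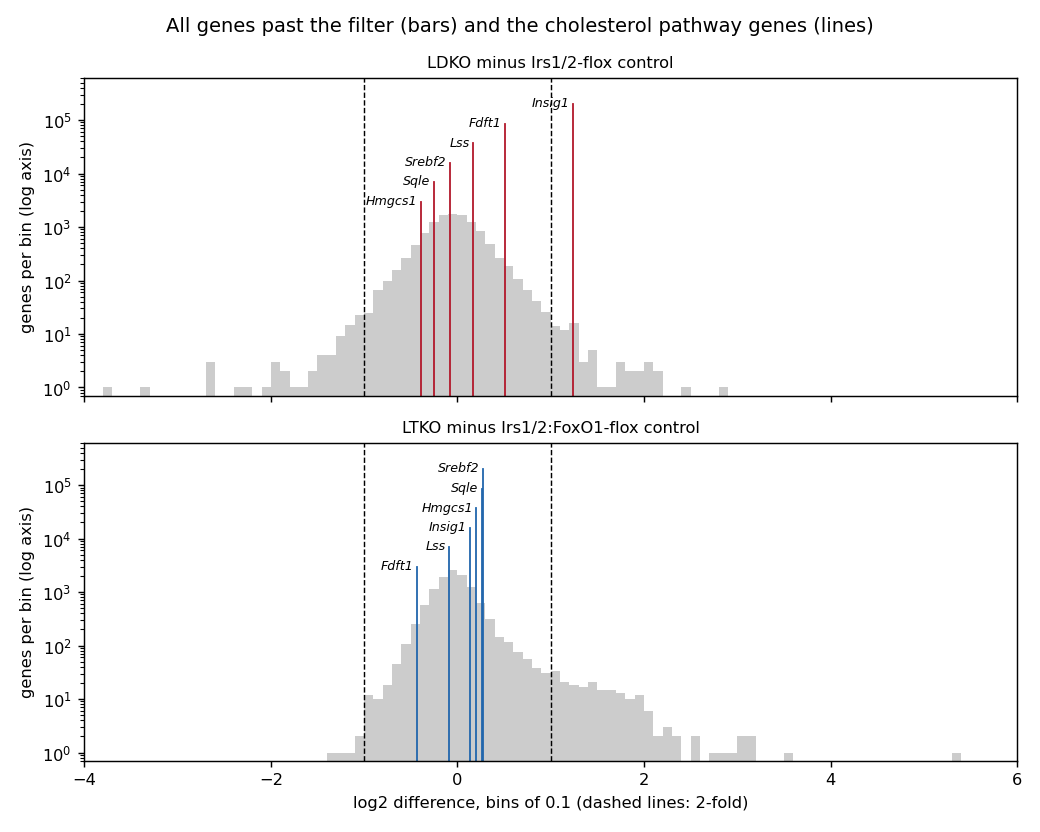
Number of genes per bin of 0.1 in log2 difference (grey bars, log axis) for LDKO and for LTKO against the matching control, with the 6 genes as coloured lines whose heights only keep the names apart. Insig1 lies beyond the 2-fold line at 1.24 in LDKO and at 0.14 in LTKO, and the other 5 genes lie inside the lines in both panels.

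In LTKO fat no gene of the 6 was far from its control. The differences from the Irs1/2:FoxO1-flox control were 0.20 for Hmgcs1, which was 10.78 in LTKO, against 10.57, and 0.26 for Sqle, which was 5.80, against 5.54. The Sqle difference turned to −0.04 against the other control. Insig1 differed by 0.14. Fdft1 was 8.40 in LTKO, against 8.83 in its control, a difference of −0.43 that had the opposite sign, 0.67, against the other control. Lss was 5.74, against 5.82, and it too was higher, by 0.41, against the other control. LTKO was therefore the array with the highest Hmgcs1 and Srebf2, and it held the lowest value of none of the 6. Of all 11958 genes past the filter, LTKO was the highest array for 21.8% and the lowest for 20.1%.

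At 2-fold 0 of the 6 genes were apart in LTKO, against 1.78% of all 11533 genes. At 1.5-fold 0 were, against 4.41%. Their median difference was 0.17, with 4 of 6 higher, and that of all genes was −0.03, with 42.8% higher. Hepatocyte, epididymis and sperm markers were all higher in LTKO than in its control, 8 of 8, 5 of 5 and 4 of 4, with median differences of 1.48, 2.58 and 2.69, and liver is itself a site of cholesterol synthesis. Their part in the small differences of the 6 genes was not tested.

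**Figure D3:**
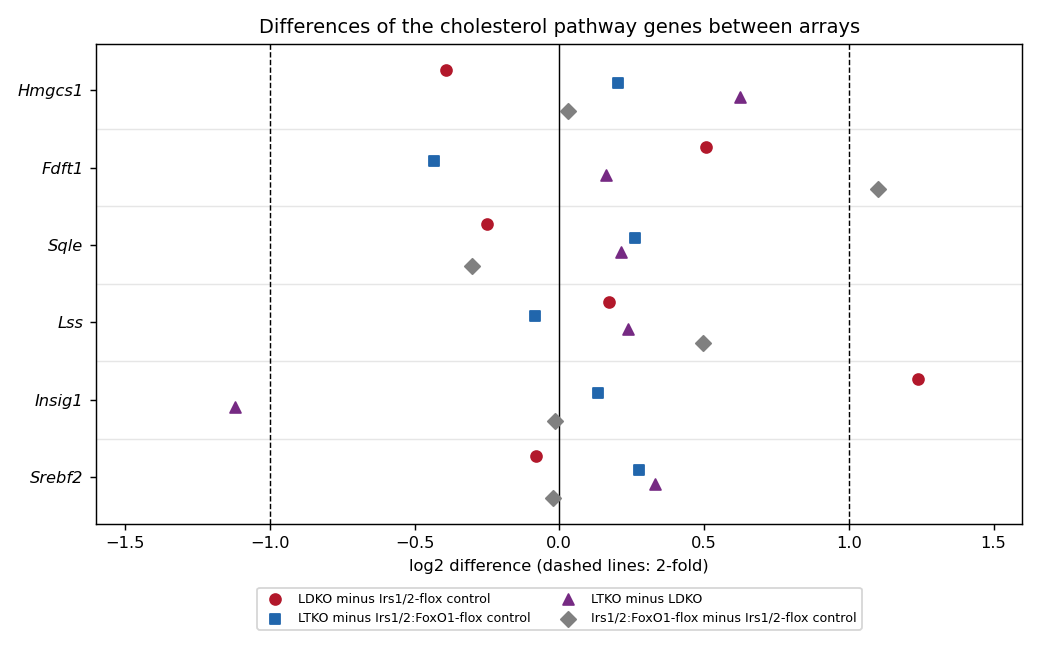
Log2 differences of the 6 genes in 4 comparisons, each point the difference of 2 single arrays, with dashed lines at 2-fold. Insig1 lies at 1.24 in LDKO and at −1.12 for LTKO minus LDKO, and Fdft1 lies at 1.10 between the 2 controls.

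Between LTKO and LDKO themselves, Insig1 and Hmgcs1 lay on opposite sides. The Insig1 difference was −1.12, with a level in LDKO 2.17-fold that in LTKO, and its rank was the 51st from the lowest of 11660 genes. Hmgcs1 was higher in LTKO by 0.63, or 1.54-fold. The other 4 genes were also higher in LTKO, Srebf2 by 0.33, Lss by 0.24, Sqle by 0.21 and Fdft1 by 0.16, so that 5 of 6 were higher and their median was 0.23, while the median of all genes was 0.05 with 57.4% higher. At 2-fold 1 gene, Insig1, was apart, against 2.11% of all genes, and at 1.5-fold 2 were, against 7.98%. These values use the LDKO and LTKO arrays of the comparisons above and hold any difference between the floxed lines.

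When each line was first set against its own control, the LTKO difference was below the LDKO difference by −1.10 for Insig1 and by −0.94 for Fdft1, and above it by 0.60 for Hmgcs1, 0.51 for Sqle and 0.35 for Srebf2. Lss lay at −0.26. At 2-fold 1 of the 6 genes was apart on this measure, against 4.01% of 11958 genes, and at 1.5-fold 3 were, against 13.0%. Hmgcs1, Sqle, Fdft1, Lss and Srebf2 had opposite signs in LDKO and LTKO, as did 49.9% of all genes. For Fdft1, LTKO and LDKO differed directly by 0.16 and the controls by 1.10.

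A comparison of the 2 arrays without Cre gives 1 difference per gene where the liver is intact, which cannot show how far a gene varies. The 2 lines also differ in whether FoxO1 is floxed. Marker sums were higher in the Irs1/2-flox control array for skeletal muscle (856, against 448) and mesothelium (1489, against 944) than in the other control array. Insig1 differed by −0.02 between the 2 control arrays, Srebf2 by −0.02 and Hmgcs1 by 0.03. Fdft1 was 8.83 in the Irs1/2:FoxO1-flox control, against 7.73 in the Irs1/2-flox control, which is 2.15-fold and the 23rd from the highest of 11432 genes. Lss was 5.82, against 5.33, a difference of 0.50, and Sqle was 5.54, against 5.84, a difference of −0.30. The Irs1/2-flox control was thus the lowest array for both Fdft1 and Lss. By the 2-fold rule 1 of the 6 genes was apart between the controls, against 0.770% of all genes, and by the 1.5-fold rule 1, against 4.55%. Over all genes the median absolute difference between the controls was 0.16.

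The wider sterol pathway was read from a list of 30 further genes, of which 23 were measured. Against its own control LDKO had 14 of the 23 higher and 9 lower, with a median of 0.11, while 43.2% of all genes were higher. At 1.5-fold 4 were apart upward and 1, Abcg1, downward, while 6.74% of all genes were apart either way. LTKO had 11 higher and 12 lower, with a median of −0.01, while 42.8% of all genes were higher. At 1.5-fold 1, Dhcr7, was apart, downward, while 4.41% of all genes were apart either way. Against the other control none of these calls held: 0 of the 23 were 1.5-fold apart in LDKO or in LTKO, against 7.04% and 5.01% of all genes, and the sign turned for 4 genes in LDKO and 9 in LTKO. None of the 23 was 2-fold apart in either comparison, while 1.20% and 1.78% of all genes were. LDKO was the highest array for 10 of the 23 and for 22.7% of all genes. It was the lowest array for 7 of the 23 and for 37.4% of all genes.

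Of 5 measured enzymes of the mevalonate steps, none of them 1.5-fold apart, 4 were higher in LDKO and 3 in LTKO, with medians of 0.10 and 0.13. Of all genes 43.2% were higher in LDKO and 42.8% in LTKO. Against the other control 4 were higher in LDKO (median 0.34) and 2 in LTKO (median −0.16). Mvd, which forms the isoprenoid unit isopentenyl diphosphate, was 5.99 in LDKO, against 5.59 in its control, and 5.94 in LTKO, against 5.59 in its control, and so was the only one of these 5 with a difference over 0.3 in both. Fdps, which makes farnesyl diphosphate, the substrate of squalene synthase, differed by 0.16 in LDKO and by 0.21 in LTKO, where it was −0.18 against the other control.

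The steps after squalene held 3 of the 5 differences at 1.5-fold in LDKO. None of the 3 held at 1.5-fold against the other control. Of 8 measured enzymes 7 were higher in LDKO (median 0.20), while 43.2% of all genes were, and 3 in LTKO (median −0.05), while 42.8% were. Without Cre the count was the same, with 7 of 8 higher in the Irs1/2:FoxO1-flox control than in the Irs1/2-flox control (median 0.14), while 55.5% of all genes were. Against the Irs1/2:FoxO1-flox control LDKO had 6 of 8 higher (median 0.08). Nsdhl, a dehydrogenase that removes sterol methyl groups, was 7.93 in LDKO, against 7.31 in its control, and 7.73 in LTKO, against 7.52 in its control. Dhcr7, which makes cholesterol from its last precursor on one branch, was 5.93 in LDKO, against 5.34, and 5.01 in LTKO, against 5.64, so that LDKO was the highest and LTKO the lowest of the 4 arrays. Its differences were 0.59 in LDKO and −0.62 in LTKO, and −0.92 for LTKO directly against LDKO. Tm7sf2, a sterol reductase named here after its value was seen, was the third at 1.5-fold in LDKO with 0.59, and −0.01 in LTKO, or 0.11 against the other control. Sc5d, a sterol desaturase, differed by 0.13 in LDKO and −0.27 in LTKO. Cyp51, the demethylase named here after its value was seen, was the 1 enzyme of this group lower in LDKO, at −0.29.

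Of the SREBP machinery, Srebf1, the gene of the related factor SREBP1, had the largest difference in LDKO. It was 7.12 in LDKO, against 6.41 in its control, and 6.75 in LTKO, against 6.92 in its control, differences of 0.71 and −0.17. Against the Irs1/2:FoxO1-flox control the LDKO value was higher by 0.21, against the Irs1/2-flox control the LTKO value was higher by 0.34, and the controls differed by 0.51. Mbtps2, a protease that releases the active SREBPs, differed by −0.37 in LDKO and 0.16 in LTKO. Insig2, the sister of Insig1, is named here outside the rule of largest differences. It was 7.75 in LDKO, against 8.02, and 7.72 in LTKO, against 7.60, and both differences changed sign against the other control. Stard4, a sterol carrier and SREBP2 target, differed by −0.19 in LDKO and 0.18 in LTKO.

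The side of sterol efflux is driven by the sterol-sensing LXR receptors. Of its 4 measured genes 1 was higher in each line, while 43.2% of all genes were in LDKO and 42.8% in LTKO. Against the other control 0 of the 4 were higher in LDKO and 3 in LTKO. Abcg1, a cholesterol exporter and LXR target, was 6.79 in LDKO, against 7.39 in its control, and 7.82 in LTKO, against 7.31 in its control. It was thus lowest in LDKO and highest in LTKO, and 1.04 higher in LTKO directly against LDKO. In that direct comparison 2.11% of all genes were 2-fold apart. Abca1, also of this group, is named here outside the rule of largest differences. It differed by −0.13 in LDKO and −0.23 in LTKO, and by 0.15 for LTKO directly against LDKO. Mylip, an LXR target that marks lipoprotein receptors for breakdown, differed by 0.27 in LDKO and −0.17 in LTKO, and by −0.10 and 0.20 against the other control. Nr1h3, which encodes LXRα, differed by −0.17 in LDKO and −0.43 in LTKO. Abcg1 is also expressed in macrophages, whose markers were lower in both lines, and their part in the Abcg1 values was not tested.

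**Figure D4:**
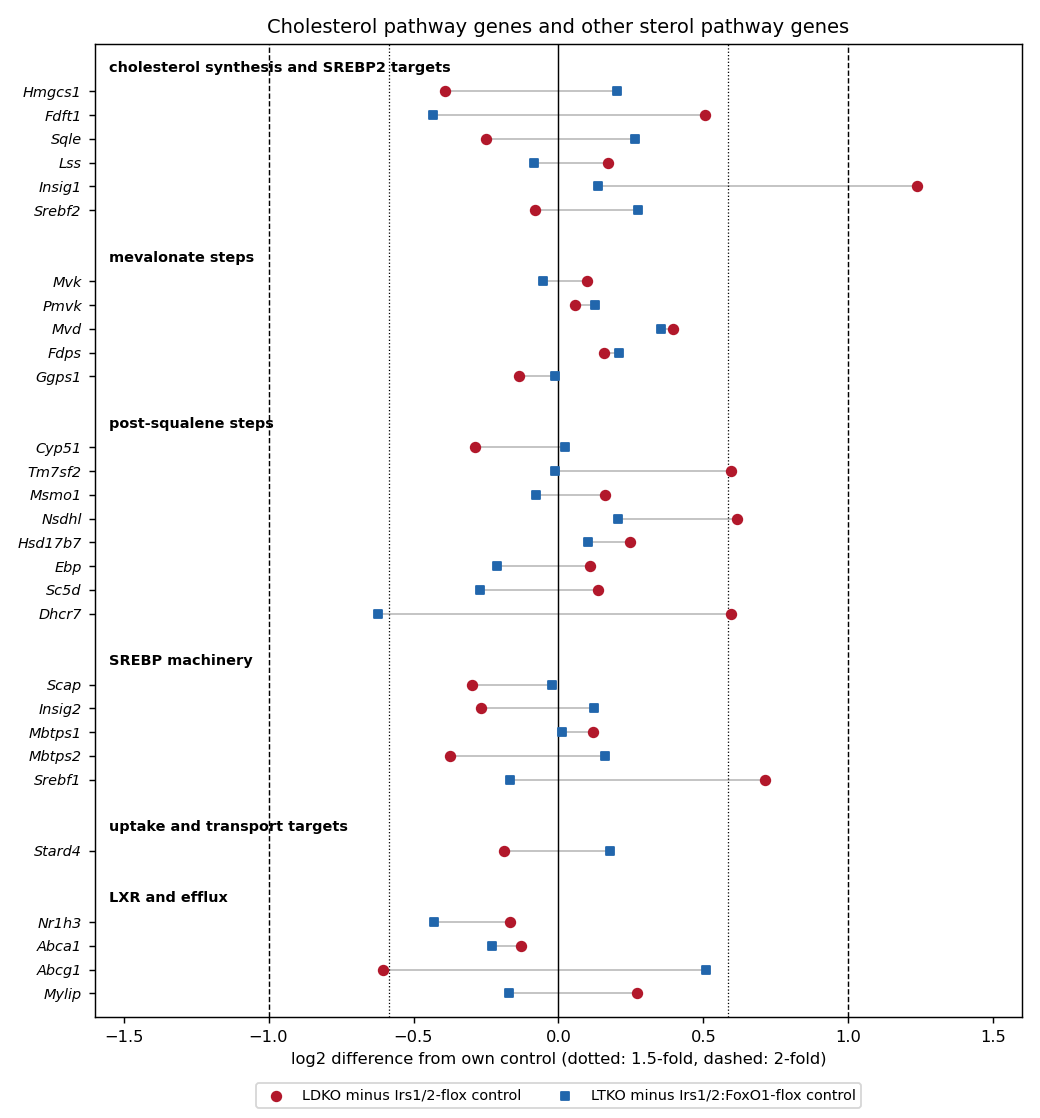
Log2 difference of LDKO (red circles) and LTKO (blue squares) from their own controls for the 6 genes and 23 further sterol pathway genes by role, with dotted lines at 1.5-fold and dashed lines at 2-fold. Insig1 in LDKO is the 1 point beyond 2-fold. Dhcr7, Abcg1, Fdft1 and Srebf1 are among the genes whose 2 differences lie on opposite sides of 0.

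The genes whose profile over the 4 arrays was nearest to that of Insig1, by Euclidean distance between centred log2 values among 10395 candidates, were Lpgat1 (distance 0.07), Paqr9 (0.11), Cycs (0.13), Ranbp3l (0.14) and Anxa2 (0.16). None is a sterol pathway gene of the list. Lpgat1, a phospholipid acyltransferase, was 10.04 in LDKO, against 8.85 in its control, and 8.98 in LTKO, against 8.76 in its control. Cycs, the electron carrier cytochrome c, was 11.39 in LDKO, against 10.21, and 10.43 in LTKO, against 10.12. All 5 were high in LDKO by 1.04 to 1.27 and within 0.33 of the control in LTKO. The mean profile of the 6 genes was nearly flat, from −0.17 in the Irs1/2-flox control to 0.10 in LTKO about the mean, and its nearest genes were Ube3c, Jtb, Pold2, Fam20b and Med11, at distances of 0.01 to 0.03. With 4 arrays these likenesses are descriptions.

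**Figure D5:**
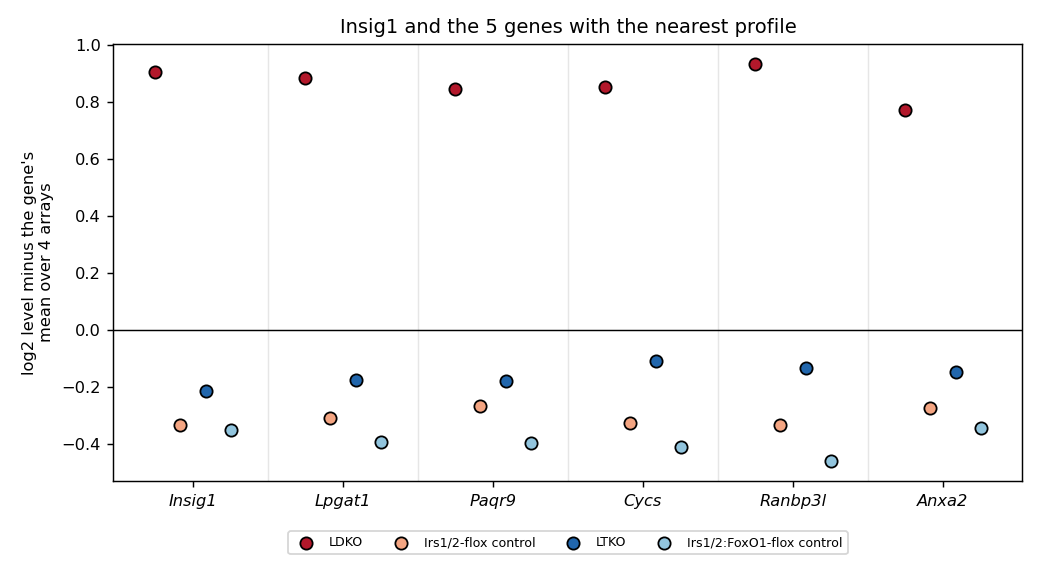
Log2 level minus the mean of each gene over the 4 arrays, for Insig1 and the 5 genes nearest to it in profile, with 1 point per array. In each of the 6 genes the LDKO point lies above the mean and the other 3 points lie below it.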

How the data were processed

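Per the labels' protocols, fat RNA was copied into biotin-labelled single-stranded DNA for Affymetrix whole-transcript arrays. The authors deposited a log2 signal for each probe set, computed in Expression Console by RMA, per the submitters' processing notes. Software versions and the set of arrays normalized together are not stated there. RMA compresses differences of dim probes, and Sqle and Lss lay close to the median gene.

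Of 41345 probes 23521 had 1 gene symbol, 1814 several and 16010 none here. Gene identifiers gave current symbols from GRCm38.p6, which held 23328 of the probes with 1 symbol. Medians per array ran from 4.68 to 4.73, and Pearson's r across genes between arrays from 0.986 to 0.991. Differences were taken between single arrays, with no test. The 6 genes, the wider list of 30 symbols (7 of them not matched), the markers and the rules for named genes were chosen with earlier results of these data known. For the wider list these rules name the 2 largest differences of each role group in LDKO and in LTKO. Tm7sf2, Cyp51, Insig2 and Abca1 were named outside them. The likeness rule names the 5 nearest profiles among genes at or above the median gene, without predicted, clone and small RNA genes. Promoter motifs were chosen with the promoters in view. The steps were tested on simulated data for LDKO against its control (22180 genes, noise of SD 0.2): 97% of genes planted at 1.5 and 100% at −2.0 were recovered. The planted differences lay well beyond the 2-fold cut-off, and the noise was a setting, not variation measured between animals. The run therefore checks the steps and says nothing on how reliable the differences reported here are. The alternatives tried were a cut-off of 1.5-fold or 3-fold, the other control, the mean of both controls, a second quantile normalization, a loess curve (span 0.3) taken out, averaging a gene's probes, omitting the filter, setting it to the 70th percentile, and leaving out the gene with the largest difference. Python 3.11.15 with numpy 2.4.6, pandas 2.3.3, statsmodels 0.14.6 and matplotlib 3.10.9 was used.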

Additional observations from a re-analysis of the deposited data

Results flagged for a closer look

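Hmgcs1, Sqle, Fdft1, Lss and Srebf2 differed from the matching control with opposite signs in LDKO and LTKO. With 1 array per group this was not tested, and 49.9% of all genes did the same. The LTKO difference minus the LDKO difference was 0.60 for Hmgcs1, 0.51 for Sqle and 0.35 for Srebf2, whose differences were negative in LDKO and positive in LTKO. It was −0.94 for Fdft1 and −0.26 for Lss, whose differences were positive in LDKO and negative in LTKO. For Sqle, Fdft1 and Lss the sign in each line turned when the other control was used, and for Hmgcs1 and Srebf2 it did not.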

How the results depend on the processing

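No paired analysis was possible because each group has 1 array, and for the same reason no replicate could be left out. Insig1 in LDKO ran from 1.20 to 1.25 over its 5 alternatives, and for LTKO minus LDKO from −1.12 to −1.09 over its 3. Averaging a gene's probes, counted among these alternatives, could change no value, because each of the 6 genes has 1 probe. Under quantile normalization again all 30 differences of the 6 genes kept their sign, and with a loess curve removed 29 of 30 did. With the other control 6 of 12 differences changed sign and with the mean of both controls 4 of 12 did, those of Sqle, Fdft1 and Lss in the first case and of Fdft1 and Lss in the second, and the LDKO median of the 6 genes was −0.19 against the other control. For the wider list, an alternative chosen after seeing the data, 0 of 23 genes were 1.5-fold apart in LDKO or in LTKO with the other control, against 5 and 1 with the matching one. Of the 6 genes at 1.5-fold with the other control, Insig1 was higher and Fdft1 lower in LDKO, and Fdft1 was higher in LTKO. Of all genes 7.04% and 5.01% were apart. With the matching control the counts of the 6 were 1 in LDKO and 0 in LTKO. At 3-fold 0 of the 6 genes were apart in any comparison. At 1.5-fold 2 were apart for LTKO minus LDKO and 3 for the LTKO difference minus the LDKO difference. Counts were the same without the filter and with it at the 70th percentile. The other values moved by less than 0.17, a robust spread over genes of the difference between the 2 controls, scaled to 1 array. It is not a spread between animals. Among these values, the LDKO median of the 6 genes turned to −0.08 without Insig1 and to −0.07 with the mean of both controls. With 1 array per group, no difference of any size can be told from variation between animals, and signals near the background of the array understate differences.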

Other observations

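The probe shared by Idi1, the isomerase of isoprenoid units, and the pseudogene Gm13502 read 6.50 in LDKO, against 6.26 in the Irs1/2-flox control, and 6.29 in LTKO, against 6.09 in the Irs1/2:FoxO1-flox control. Its differences were 0.25 and 0.19, and which of the 2 genes gave the signal is not known.

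The levels of the deleted liver genes in fat do not check the deletion. Irs2 was 7.62 in LDKO, against 7.96 in its control, and 7.79 in LTKO, against 7.93 in its control. Irs1 was 7.46 in LDKO, against 6.96, and 7.09 in LTKO, against 7.86. Foxo1 was 8.02 in LDKO, against 8.22, and 8.26 in LTKO, against 8.37.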
